A study of Caenorhabditis elegans with 3 samples.

Results

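The eggshell and chondroitin proteoglycan genes described here are cpg-1, cpg-2, cpg-3, cpg-9, cbd-1, perm-2, perm-4, egg-1, egg-3 and chs-1 of the nematode Caenorhabditis elegans. They were chosen by name, as all probe sets that the array's annotation table assigns to 1 of these symbols, with symbols updated through the gene ID. This gave 17 probe sets of 10 genes, out of 20766 probe sets of 17118 genes. RNA came from wild-type hermaphrodites of strain N2, young adults of 3 days from an age-synchronised culture, and each group was 1 Affymetrix array: worms at 0 h with no treatment, and worms kept for 4 h or 24 h with multiwall carbon nanotubes, which are hollow carbon fibres, at 1 mg/L in K-medium, a salt solution. With 1 array per group there was no replicate error and no test across samples, and none of the 3 arrays held worms of the later times without nanotubes, so exposure, time in the medium and age of the worms cannot be told apart.

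Most of the eggshell of C. elegans is made by the fertilised oocyte within minutes of sperm entry, from transcripts and proteins stored while the oocyte grows in the gonad. The eggshell consists of an outer vitelline layer, a middle layer of chitin and an inner layer of chondroitin proteoglycans, proteins that carry long sugar chains. A lipid layer below them closes the egg to small molecules. The genes described here encode proteins of each of these outer layers and the enzyme and oocyte surface proteins that start their assembly.

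The arrays had median intensities between 100.2 and 102.8, and the brightest control for absent transcripts, used as the background floor, had an intensity of 67.83. All 17 probe sets of the eggshell genes lay above this floor on all 3 arrays. They also passed the filter used to analyse genes, a mean over the arrays at or above the median of all probe sets. Each ratio below is the log2 ratio of 2 intensities after 32 was added to both, so changes of dim probe sets are understated. All 6 intestine markers, which include yolk protein genes, passed the filter, as did all 11 oocyte markers. The median log2 ratio of the oocyte markers was -0.17 at 4 h and -0.20 at 24 h against 0 h, and their summed intensity went from 49054 (0 h) to 44088 (4 h) and 37919 (24 h). They went both ways at 24 h, with 5 ratios above 0 and 6 below. The genes mex-3 (-1.02) and puf-11 (-1.01) were lower by 2-fold, and the yolk receptor gene rme-2 had a ratio of 0.40. At 24 h, other probe sets gave 0.05 for mex-3, 0.62 for pos-1, 0.00 for spn-4 and -0.78 for oma-2. The probe sets used gave -0.20 for pos-1, -0.61 for spn-4 and 0.12 for oma-2. The gene at the median was pos-1, so the median and the sum depend on the probe set used. In whole worms, a different number of cells of a type and a different amount of RNA per cell cannot be told apart.

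Among the 10 genes, cpg-9 was far lower on both exposed arrays and the other 9 stayed within 2-fold of their 0 h value. In the comparison of 4 h with 0 h, 1 of 10 was lower by 2-fold or more and 0 were higher. Of all 8634 genes, 4.97% were past 2-fold, 3.25% lower and 1.71% higher. At 24 h against 0 h the count was again 1 lower and 0 higher, beside 13.3% of all genes past 2-fold, 7.96% lower and 5.32% higher. In the comparison of 24 h with 4 h, 1 was lower and 0 were higher, beside 5.5% of all genes past 2-fold, 3.22% lower and 2.28% higher. With 10 genes, 1 past the threshold is the smallest count above 0, so these counts do not show a share that differs from this background. The gene past 2-fold was cpg-9 in each case. The median log2 ratio of the 10 genes was 0.04 at 4 h and 0.07 at 24 h against 0 h, and 0.00 for all genes in both. Without cpg-9, ratios ran from -0.14 to 0.47 at 4 h and from -0.25 to 0.78 at 24 h. Of these 9 genes, 7 lay between the quartiles of all genes at 24 h (-0.39 and 0.31).

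**Figure D1:**
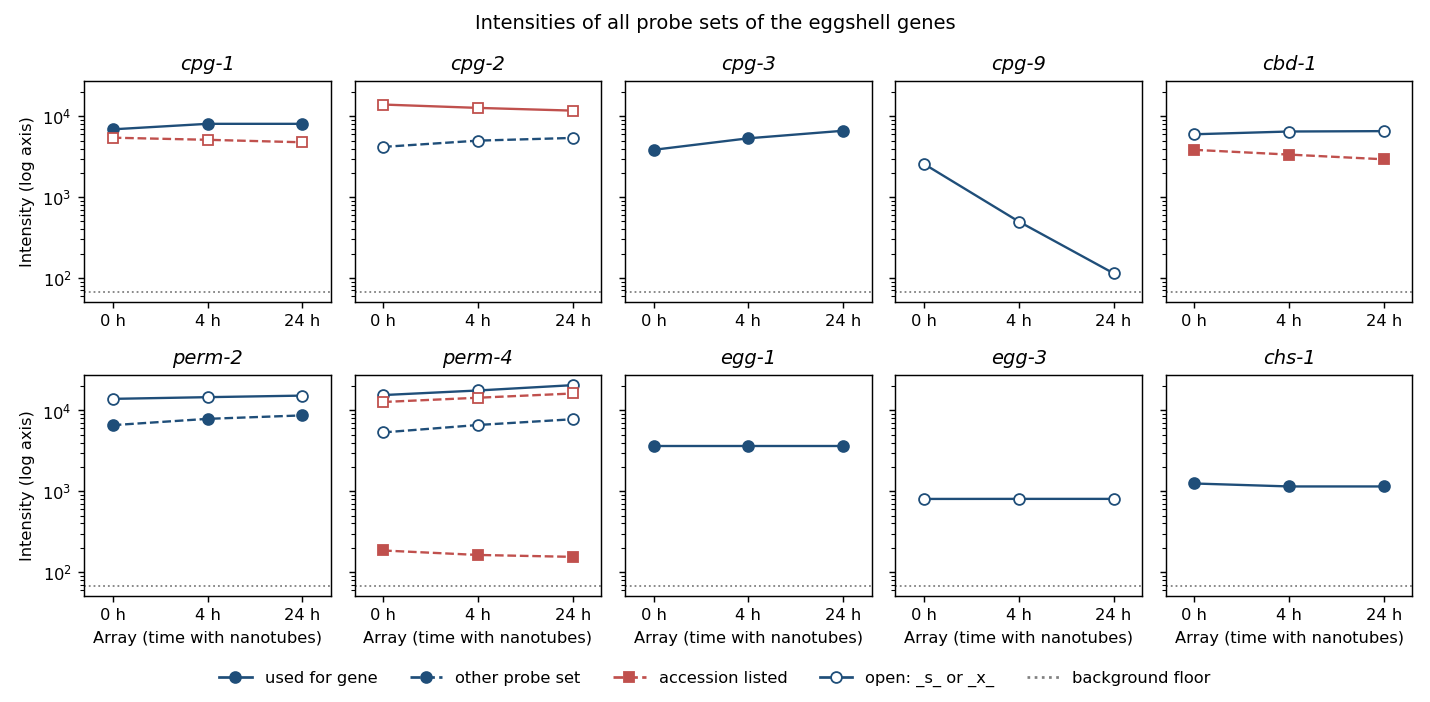
Intensity on a log axis for each of the 17 probe sets of the 10 eggshell genes on the 0 h, 4 h and 24 h arrays, with 1 array per time and no error bars. Solid lines mark the probe set used for the gene, dashed lines its other probe sets, red squares those with a listed sequence accession, open symbols those open to cross-hybridisation and the dotted line the background floor of 67.83. The line of cpg-9 goes from 2580.3 to 114 and that of cpg-3 from 3854 to 6637, and all lines other than that of cpg-9 stay within 2-fold of their 0 h value.

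The cpg genes encode the core proteins of chondroitin proteoglycans. For cpg-9, named among these core proteins, the single probe set had an intensity of 2580.3 at 0 h, of 499.5 at 4 h and of 114 at 24 h. The 0 h array was the highest and the 24 h array the lowest, still above the background floor. The log2 ratio to 0 h was -2.30 at 4 h, which is 4.91-fold lower, and -4.16 at 24 h, which is 17.9-fold lower. Between 4 h and 24 h the log2 ratio was -1.86. Ordered from the lowest ratio, cpg-9 stood at place 18 of 8634 genes at 4 h and at place 4 at 24 h. Its probe set is of the manufacturer's _s_ type, which can detect more than 1 transcript, and no other probe set measured the gene.

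The direction for cpg-9 was the same under every setting tried in which it was measured, with log2 ratios from -4.49 to -3.62 at 24 h. As cpg-9 has a single probe set, only the scalings of the arrays could have changed this direction. Leaving out _s_ probe sets left cpg-9 unmeasured. For comparison, the technical SD of a log2 ratio was 0.24 for 4 h against 0 h, 0.47 for 24 h against 0 h and 0.29 for 24 h against 4 h. This SD leaves out any difference between cultures or hybridisations. It was taken from pairs of probe sets of the same gene in 1830 genes, without removing the mean difference within pairs. The differences within pairs were one-sided, so the SD holds this offset as well as spread. The brighter probe set, the kind used for each gene, had the lower ratio in 76.1% of these genes at 4 h against 0 h. At 24 h against 0 h this share was 78.6%, and the mean differences were -0.17 at 4 h and -0.35 at 24 h. The ratio of cpg-9 was 9.46 times this SD in size at 4 h and 8.90 times at 24 h, on the lower side.

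Marker genes of some other tissues moved past 2-fold on the same arrays, in both directions. None of the 6 intestine, 3 body wall muscle and 1 somatic gonad markers that passed the filter did so in any comparison. Their median log2 ratios at 24 h against 0 h were -0.01, -0.14 and -0.20. Of the 6 sperm markers that passed the filter, of 8 on the array, 1 was lower by 2-fold at 4 h and 5 were lower at 24 h. The summed intensity of the 8 went from 3890 (0 h) to 2383 (4 h) and 774.9 (24 h), and 2 of them, spe-9 and spe-38, lay below the floor on all arrays. Of the 4 epidermis markers, the cuticle collagen gene bli-1 was lower by 2-fold at both times, dpy-7 was higher at 24 h, and the summed intensity went from 6302 (0 h) to 6692 (4 h) and 4823 (24 h). The bli-1 value at 24 h, 55.50, lay below the floor. The other probe set of bli-1 gave -0.38 at 4 h and -0.64 at 24 h, short of 2-fold. Of the 3 embryo markers that passed the filter, of 4 on the array, 1 was higher by 2-fold at 4 h and 2 were higher at 24 h. They were the hatching enzyme gene hch-1 (log2 ratio 2.24 at 24 h) and ceh-22, which had 62.08 at 0 h, below the floor, and 191.0 at 24 h. The summed intensity of the 4 embryo markers went from 353.4 (0 h) to 685.4 (4 h) and 1024 (24 h), with hlh-1 below the floor on all arrays. The part of these tissues in the values of the eggshell genes was not tested.

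The 3 genes nearest to cpg-9, by the distance over the log2 level at 0 h and both log2 ratios to 0 h among 8634 genes, were irg-8, col-49 and ugt-22. The immune response gene irg-8 had intensities of 3214, 805.8 and 194.7 at 0 h, 4 h and 24 h, at a distance of 0.56. The cuticle collagen gene col-49 had 1613.5, 342.7 and 83.75, at a distance of 0.76. The UDP-glycosyltransferase gene ugt-22 had 2541, 420.8 and 241.5, at a distance of 0.95. None of the 3 is an eggshell gene by its name, and the likeness rests on 3 arrays. The distance includes the level at 0 h, although levels of different probe sets cannot be compared with each other. Nearness in level therefore does not show like amounts of RNA.

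**Figure D2:**
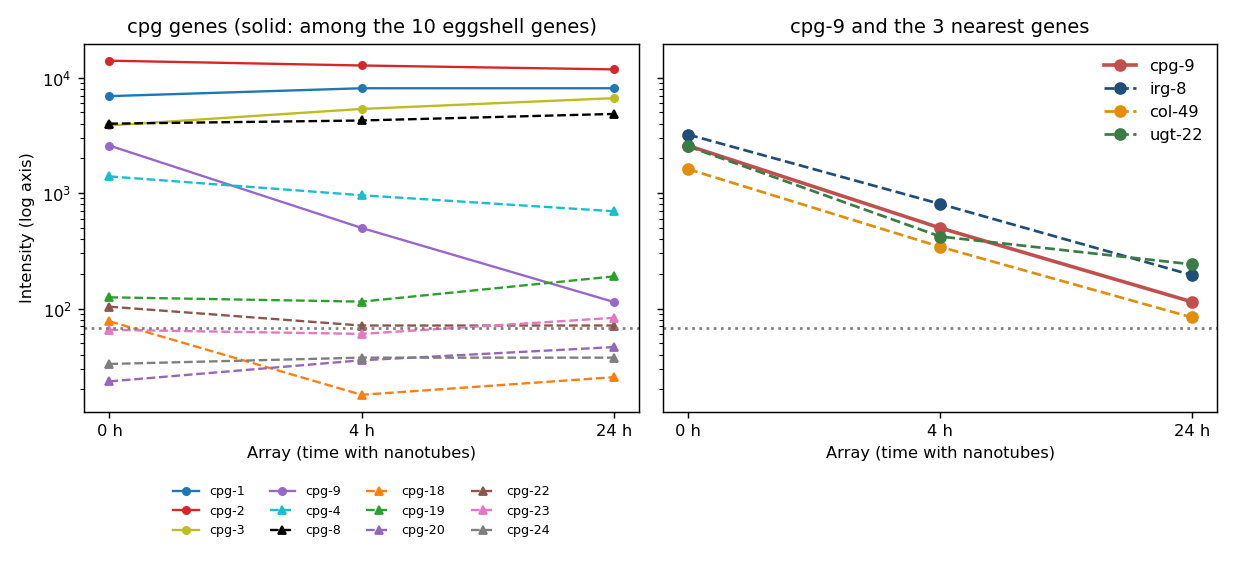
Left, intensity on a log axis of the brightest probe set of each cpg gene on the 3 arrays, with solid lines for the 4 cpg genes among the 10 eggshell genes. Right, cpg-9 with the 3 genes nearest to it. The dotted line is the background floor, and levels of different probe sets cannot be compared with each other, so each line is read on its own. That of cpg-9 goes from 2580.3 to 114 and those of cpg-1 and cpg-2 are nearly flat.

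None of the other 3 proteoglycan genes among the 10 was past 2-fold. For cpg-3, which encodes a further chondroitin proteoglycan, the 0 h array gave 3854, the 4 h array 5355 and the 24 h array 6637. The 0 h array was the lowest and the 24 h array the highest, and the log2 ratio to 0 h was 0.47 at 4 h and 0.78 at 24 h. It was the gene with the highest ratio of the 10 in each comparison, short of 2-fold and between 1.07 and 1.94 times the technical SD. Its probe set is not marked as open to cross-hybridisation, and its ratio was above 0 under every setting tried in all 3 comparisons. As cpg-3 has a single probe set, only the scalings of the arrays could have changed this sign.

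The products of cpg-1 and cpg-2 bind chitin, carry chondroitin chains and together form the inner layer. One probe set of cpg-1 had intensities of 6914 at 0 h and 8089 at both 4 h and 24 h, and the other had 5449, 5131 and 4780. The first gave a log2 ratio of 0.23 at 24 h against 0 h and the second -0.19. Of these, only the first is not marked as open to cross-hybridisation. For cpg-2, one probe set had 14016.5, 12738 and 11784 and the other 4191, 5009 and 5412 at 0 h, 4 h and 24 h. Their log2 ratios at 24 h were -0.25 and 0.37. In both genes, one probe set was highest at 0 h and the other lowest at 0 h, so the arrays gave no direction for either. All of these ratios were smaller than the technical SD of 0.47.

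The vitelline layer genes were likewise close to their 0 h values. The product of cbd-1 has chitin-binding domains and organises this layer. One probe set of cbd-1 had 6006, 6499 and 6569 at 0 h, 4 h and 24 h (log2 ratio 0.13 at 24 h), and the other 3853, 3365 and 2944 (-0.38). As for cpg-1 and cpg-2, these probe sets pointed in opposite directions. The second is the only cbd-1 probe set not marked as open to cross-hybridisation.

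The genes perm-2 and perm-4, which encode vitelline layer proteins needed for a sealed egg, lie next to each other in the gene table. For perm-2, the probe sets had 13924, 14614 and 15275, and 6578, 7875 and 8691, at 0 h, 4 h and 24 h. Both were lowest at 0 h and highest at 24 h, with log2 ratios at 24 h of 0.13 and 0.40. For perm-4, the probe set used for the gene had 15509.5 at 0 h, 17680 at 4 h and 20581.5 at 24 h, with a log2 ratio of 0.41 at 24 h. Of its 3 other probe sets, those with log2 ratios of 0.35 and 0.54 kept this order. The other one, with 184.8, 162.8 and 154.2, had the opposite order and a log2 ratio of -0.22. It is the only perm-4 probe set not marked as open to cross-hybridisation.

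The last 3 genes act at the surface and cortex of the oocyte. The gene egg-1 encodes a surface protein with LDL-receptor repeats that is needed for fertilisation, egg-3 an inactive phosphatase that holds regulators at the cortex, and chs-1 the chitin synthase of the eggshell. For egg-1 the deposited intensity was 3681 on all 3 arrays, equal to the last digit. For egg-3 it was 803.5 at 0 h and 804.8 at both 4 h and 24 h, and for chs-1 it was 1248 at 0 h and 1147 at both 4 h and 24 h. The log2 ratios to 0 h were 0.00 for egg-1, 0.00 for egg-3 and -0.12 for chs-1 at either time. Exact equality between arrays is a property of the deposited values and does not show equal RNA. It was found in 39.9% of all probe sets outside the controls for at least 2 arrays and in 14.1% for all 3, and in 4 of the 17 probe sets here, which include one of cpg-1.

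**Figure D3:**
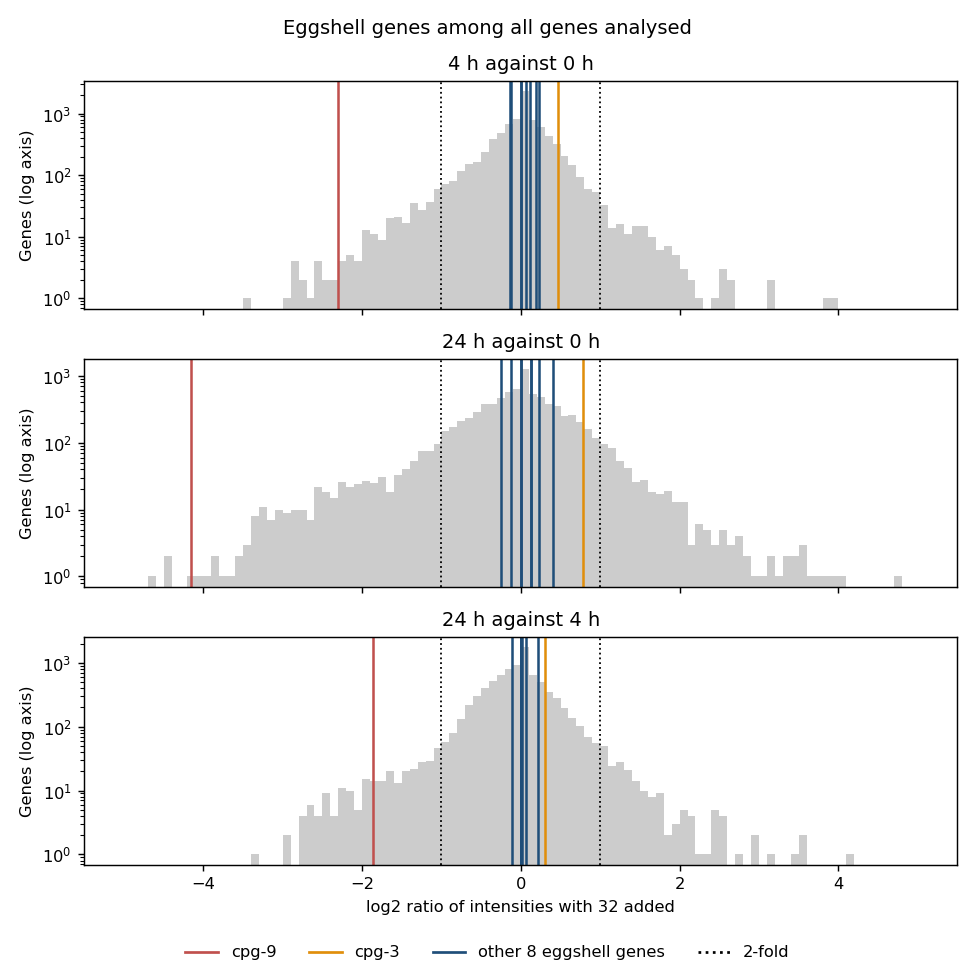
Distribution of log2 ratios of 8634 genes in the 3 comparisons, in bins of 0.1 on a log count axis, with vertical lines at the ratios of the 10 eggshell genes and dotted lines at 2-fold. The line of cpg-9 stands at -2.30, -4.16 and -1.86 and that of cpg-3 at 0.47, 0.78 and 0.31, while the other 8 lie near 0.

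Probe sets of the same gene differed by their kind. The annotation table lists a sequence accession for 5 of the 17 probe sets and none for 12. In the 4 genes with both kinds, cpg-1, cpg-2, cbd-1 and perm-4, the mean ratio of the probe sets with an accession was below that of the others. The differences at 24 h against 0 h were -0.41 for cpg-1, -0.62 for cpg-2, -0.51 for cbd-1 and -0.41 for perm-4. They were -0.31, -0.39, -0.31 and -0.24 at 4 h against 0 h. Among all 986 genes with passing probe sets of both kinds, the difference was below 0 in 89.2% at 24 h, with a median of -0.49, and in 86.6% at 4 h, with a median of -0.24. The values of these 4 genes were thus near those of other genes. On the same arrays the ratio of 5' to 3' signal of 4 of 4 worm control transcripts exceeded its 0 h value, with a median log2 change of 0.32 at 4 h and 0.56 at 24 h, and its part in these differences was not tested. Neither cpg-9 nor cpg-3 had a probe set with an accession.

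**Figure D4:**
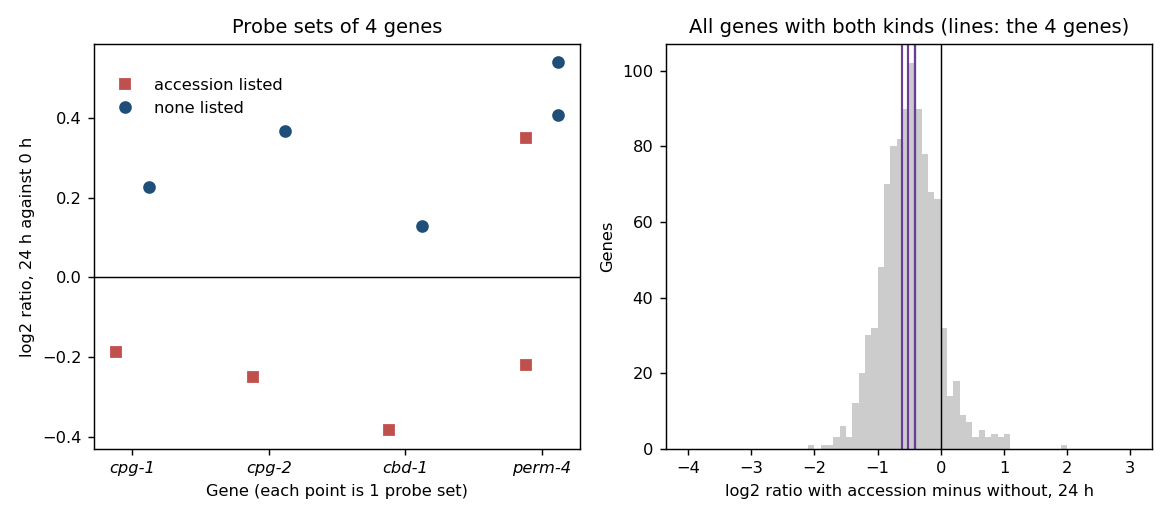
Left, log2 ratio at 24 h against 0 h of each probe set of the 4 eggshell genes that have probe sets with and without a listed accession. Right, the difference between both kinds for 986 genes, in bins of 0.1, with lines for these 4 genes at -0.41, -0.62, -0.51 and -0.41. Probe sets with an accession lie lower in each of the 4 genes, as they do in most other genes.

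Genes that work with those described here were read from 5 lists: other eggshell genes, chondroitin synthesis, chitin precursors and chitinases, the lipid layer, and the release of cortical granules, the vesicles that deliver proteoglycans to the shell. Of 41 listed genes 35 had a probe set of their own and 31 passed the filter. With the constant added to both intensities, none of the 31 was higher or lower by 2-fold in any of the 3 comparisons. Their median log2 ratio was 0.00 at both 4 h and 24 h against 0 h. The count depends on this constant. Without it, cpg-4 (1396 at 0 h and 696.4 at 24 h) and emb-8 (776.0 and 385.0) were lower by slightly more than 2-fold. Other constants were not tried for this count. With a scaling on the spiked bacterial controls of the hybridisation, the median of all genes was 0.43 at 4 h and 0.61 at 24 h, and 1 of the 31 was higher by 2-fold at 4 h, cht-1, and 5 at 24 h, with 0 lower. Under this scaling 6.31% of all genes were higher by 2-fold at 4 h and 21.97% at 24 h. With quantile normalization 1 was higher at 24 h, the chitinase gene cht-3.

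Of the 7 other eggshell genes that passed the filter, the lowest was the proteoglycan gene cpg-4. Its intensities were 1396, 958.4 and 696.4 at 0 h, 4 h and 24 h, highest at 0 h. The log2 ratio at 24 h, with the constant added to both intensities, was -0.97, just short of 2-fold. Without this constant the fall of cpg-4 is slightly more than 2-fold. The other probe set of cpg-4 gave -0.54. The highest was perm-3, named for the permeable egg its loss gives, with 2235, 2866 and 3143 and a log2 ratio of 0.49 at 24 h. The kinase gene mbk-2, whose product acts with that of egg-3 at the egg cortex, had a log2 ratio of -0.46 at 24 h, with other probe sets at -1.18 and 0.31. The egg-1 relative egg-2 had intensities of 3721, 3750 and 3750. Beyond these, cpg-8 had a log2 ratio of 0.28 at 24 h. Of 6 further cpg genes, which were added after the files were opened, 1 passed the filter, cpg-19, with 125.2, 114.9 and 189.8.

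Among the 8 chondroitin synthesis genes that passed the filter, the lowest at 24 h was mig-22, which encodes a cofactor of chondroitin polymerisation. It had 1847, 1417 and 934.3 at 0 h, 4 h and 24 h (log2 ratio -0.96), and its other probe set gave -0.51. The highest was sqv-1, for a step of sugar nucleotide synthesis, with 451.6, 591.5 and 674.0 (0.55). For the chondroitin synthase gene sqv-5 the ratio was -0.36, and its other probe set gave 0.19. The nucleotide sugar transporter gene sqv-7 had probe sets at 0.21 and -1.16, the latter with a listed accession.

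The other lists had the following extremes at 24 h against 0 h. In the chitin list, cht-3 was highest, with 1535, 1935 and 3003 (log2 ratio 0.95), and gna-1, for a step in making the chitin precursor, was lowest of those above the filter (-0.34). The related gene gna-2 had 645.7 at 0 h and 892.7 at both later times (0.45). In the lipid layer list, emb-8, a cytochrome P450 reductase gene, was lowest, with 776.0, 513.4 and 385.0 (-0.95), and cyp-31A2 was highest (0.04). Of the 7 lipid layer genes, 6 were below 0 and 1 above, with a median of -0.23. One of them, fasn-1, had a ratio of -0.31, and its other probe set gave 0.33. In the cortical granule list, sep-1, the separase gene, was highest (0.19) and rab-6.1 lowest (-0.37). Other probe sets of rab-6.1 gave -0.61 and -0.18. These ratios, taken after a constant was added to both intensities, lay between -1 and 1 on the log2 scale. Without this constant, the fall of emb-8 from 776.0 at 0 h to 385.0 at 24 h is slightly more than 2-fold.

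**Figure D5:**
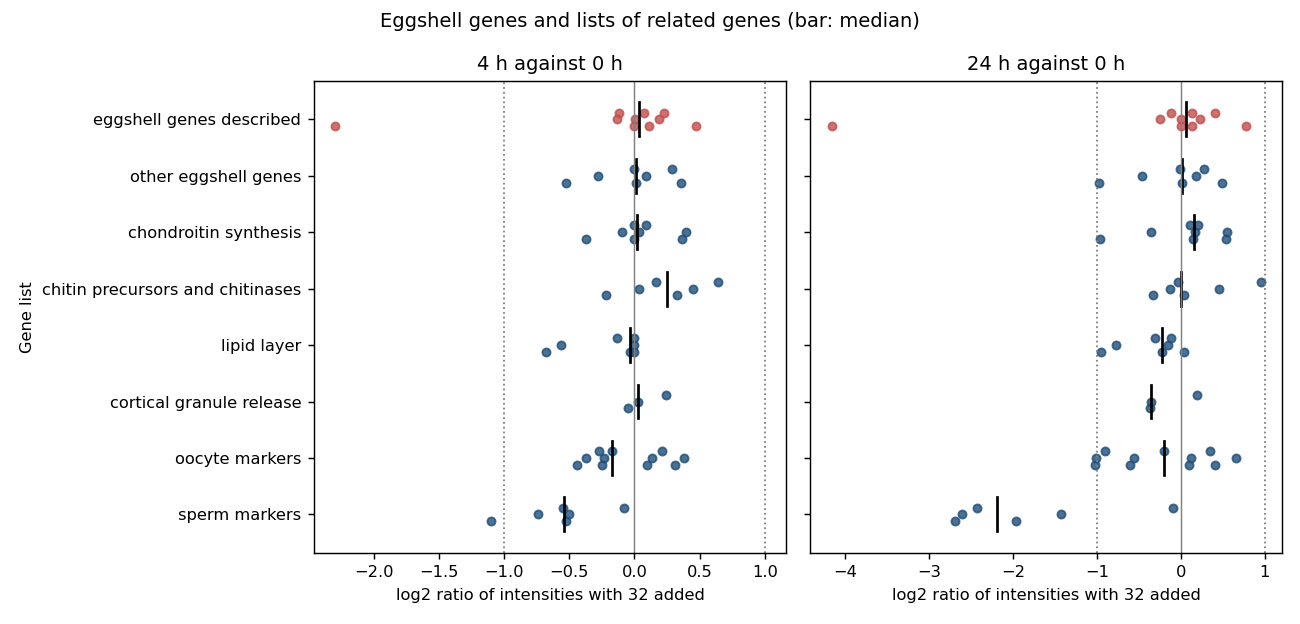
Log2 ratios at 4 h and 24 h against 0 h of the 10 eggshell genes (red), of the genes of 5 related lists and of the oocyte and sperm markers (blue), with 1 point per gene above the filter, a bar at each median and dotted lines at 2-fold. Apart from cpg-9, the eggshell genes lie between -0.25 and 0.78 at 24 h, and the median of the sperm markers lies at -2.19.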

How the data were processed

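The deposited values are probe set intensities on a linear scale that the authors normalized, 1 column for each of 3 arrays. The submitters' processing notes name Affymetrix Expression Console 1.1, RMA and MAS5, with role and order not given in the sources used here. Per the labels' protocols, RNA was labelled by in vitro transcription from the 3' end. Values were turned into log2(value + 32). Probe sets of several genes (887) and controls (77) were left out, probe sets with a mean at or above the median of all (intensity 103.9) were kept, and the brightest probe set stood for its gene, giving 8634 genes. Samples were grouped by time, 3 comparisons were made, and with 1 array per group a 2-fold threshold described genes. The number of arrays limits the precision.

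The members, lists and rules were chosen with earlier results of these data known. All members were named, together with the highest and lowest gene of each related list, any gene of these lists past 2-fold, and the 3 genes nearest to a member past 2-fold. Further genes of the lists (mbk-2, egg-2, cpg-8, sqv-5, sqv-7, gna-2, fasn-1) and cpg-19 were named after their values were seen. Gene symbols came from a gene table of assembly WBcel235, used for names and neighbours only. Alternatives are listed in the closing section. The scripts were tested on simulated data and used Python 3.11.15, numpy 2.4.6 and pandas 2.3.3.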

Additional observations from a re-analysis of the deposited data

How the results depend on the processing

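With a 1.5-fold threshold, 2 of the 10 genes passed at 24 h against 0 h, cpg-9 and cpg-3, beside 31.7% of all genes. Scaling on the hybridisation controls gave 3 at 24 h, cpg-9 lower (-3.62), and cpg-3 (1.44) and perm-4 (1.07) higher, beside 25.7% of all genes past 2-fold, and the median of the 10 was then 0.48 at 4 h and 0.72 at 24 h, near that of all genes (0.43 and 0.61). Under it cpg-2 (0.41) and chs-1 (0.53) were above 0 at 24 h, and 85.6% of all genes past 2-fold were higher, against 40.1% as deposited (81.7% against 34.5% at 4 h, 60.4% against 41.5% at 24 h against 4 h). Leaving out _x_ and _s_ probe sets left 7 genes, without cpg-9, and 0 past 2-fold in each of the 3 comparisons. No p-value exists for any of these counts. The counts kept their value with a 3-fold threshold, quantile normalization, centring on the median, no filter, a stricter filter (75th percentile), averaged probe sets per gene, 1 or 100 added, and, added after seeing the data, with probe sets without an accession only. In these settings cpg-9 was the gene past the threshold. Of the single ratios, 263 moved by less than the technical SD and 28 by more. No ratio past 2-fold changed sign, but these were the ratios of cpg-9, with its single probe set. No paired analysis was possible because each group has 1 array. Dim values near the floor, such as cpg-9 at 24 h, have the least certain folds.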
